A study of Mus musculus with 10 samples.

Results

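Mouse embryonic fibroblasts carrying a conditional knockout of Dicer (CDKO) and exposed to the lower of 2 doses of 4-hydroxytamoxifen (OHT) were compared with the same cells left untreated. Levels are log2 summaries of each probe set made with GCRMA, which removes background by probe sequence and normalizes between arrays. The 2 arrays at 1 µM OHT were set against the 2 untreated CDKO arrays, out of 10 arrays in the series. Every non-control probe set with a mean log2 level of at least 4 in either group was kept, without regard to the difference between the groups, which gave 19509 of 45037 probe sets. Of these, 17679 carried a single gene symbol and stood for 10290 genes. A total of 18621 reached the floor of 4 in both groups, 574 in untreated cells alone and 314 at 1 µM alone. At the edge of the floor, Oas1a (3.86 untreated, 4.00 at 1 µM) and Nfatc2 (3.62 and 4.00) lay just inside, and Daam2 (3.78 and 4.00) and Kazn (3.75 and 4.00) just outside.

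The cells were grown in DMEM with 10% serum, and RNA was taken after 4 days of OHT or without it. The other 6 arrays came from CDKO cells at 5 µM and from wild-type (WT) cells that were untreated or at 5 µM, with 2 arrays per group. No WT cells at 1 µM were analysed here, so an effect of the drug and an effect of Dicer deletion cannot be told apart in this comparison. The labels name neither the Cre recombinase nor the promoter that drives it, and leave unsaid whether the cultures behind each group's 2 arrays were separate. The p-values therefore measure the spread between arrays, which may be technical, and the small number of arrays limits the precision. The treatment text names OHT and the source names say tamoxifen. A description shared by all 10 samples calls them conditional Dicer knockout although 4 titles say WT, and the titles were followed here.

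Dicer is the ribonuclease that cuts hairpin precursors into mature microRNAs, which are then loaded into Argonaute proteins and lower the stability and translation of messenger RNAs with matching sites. Cells that lose it keep their existing microRNAs until these decay or are diluted by division. OHT is the active form of tamoxifen, a ligand of the estrogen receptor, and is widely used to activate Cre proteins joined to a mutated ligand-binding domain of that receptor. Tamoxifen compounds also bind proteins of sterol metabolism.

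The 4 arrays did not group by treatment. Untreated replicate 2 and 1 µM replicate 1 resembled each other nearly as closely as the untreated WT replicates did, with r = 0.992 across probe sets and 545 of 19509 probe sets more than 1 log2 unit apart. For comparison, 347 probe sets differed by that much between the 2 untreated WT arrays and 87 between the 2 treated WT arrays. Replicates within the compared groups lay much further apart, with 3683 such probe sets between the untreated CDKO arrays and 4584 between the 1 µM arrays. The SD of the difference was 0.34 for untreated replicate 2 and 1 µM replicate 1, against 0.85 between the untreated arrays and 1.04 between the 1 µM arrays. Of the 545 probe sets that separated untreated replicate 2 from 1 µM replicate 1, 489 were lower in the 1 µM array and 56 higher. The second 5 µM array lay near both of these, with 1190 such probe sets against untreated replicate 2 (r = 0.980) and 1589 against 1 µM replicate 1 (r = 0.978). Both counts were below those of the CDKO replicate pairs, so the resemblance was not confined to 1 pair. Untreated replicate 2 and 1 µM replicate 1 are called the matched arrays below. Whether labels were exchanged between samples was not tested, and all values follow the labels as given, so a direction holds only as far as they do. The array closest to 1 µM replicate 2 was an untreated WT array (r = 0.95).

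**Figure D1:**
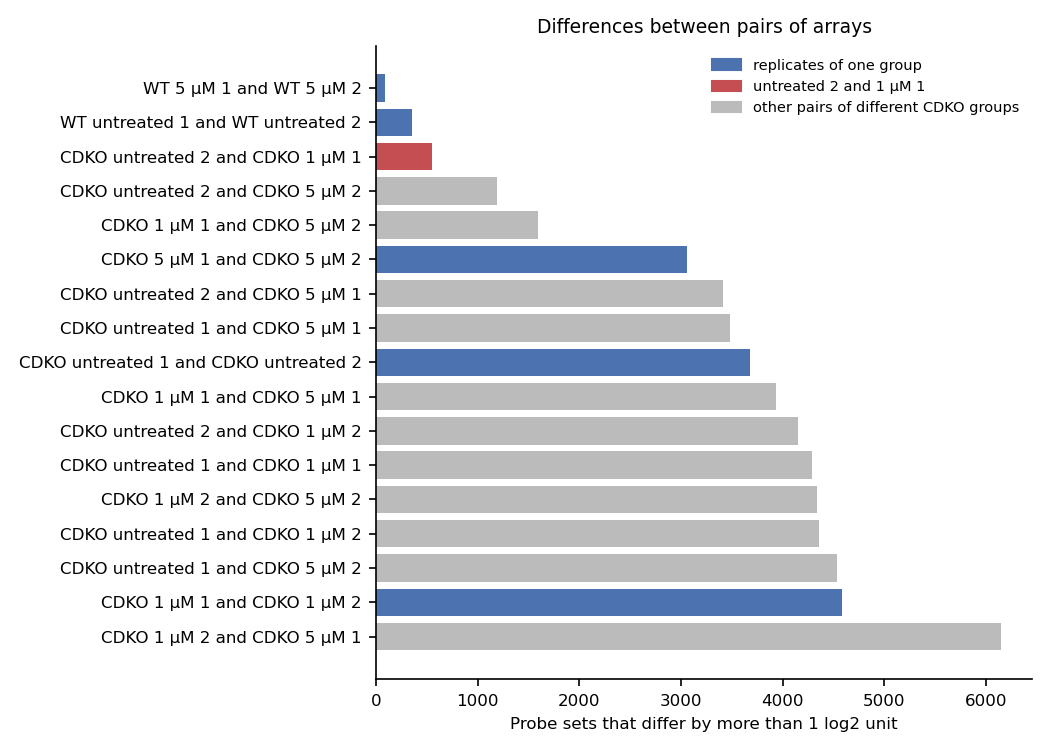
Number of the 19509 probe sets that differ by more than 1 log2 unit between pairs of arrays; each bar is a pair, blue for replicates of a group, red for untreated replicate 2 and 1 µM replicate 1, grey for other pairs of CDKO groups. The red bar (545) lies between the WT replicate bars (87 and 347) and the bars of the CDKO replicates (3060 to 4584). The grey bars of 5 µM replicate 2 with the arrays of the red bar (1190 and 1589) lie there too.

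Control probe sets also set the arrays apart. The mean level of 18 hybridization spike-in probe sets was 11.4 in untreated replicate 1, above the 10.2 of untreated replicate 2 and the 9.65 and 9.88 of the 1 µM arrays. The probe sets for 18S ribosomal RNA read 6.87 and 8.44 in untreated cells and 5.21 and 10.2 at 1 µM. In 1 µM replicate 2, the 3′ probe set of Gapdh exceeded its 5′ probe set by 1.58, against -0.11 to 0.07 in the other 3 compared arrays, a gap that widens as RNA breaks down. The untreated WT arrays had gaps of 0.89 and 0.67 and 18S levels of 11.6 and 11.2. Among the compared arrays the 18S level was highest in 1 µM replicate 2 but also differed between the matched arrays. Untreated replicate 1 (spike-in level) and 1 µM replicate 2 (Gapdh) thus stand apart from the matched arrays. Their part in the results was not tested, and values without each of them are given where a result rests on them.

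No probe set differed between 1 µM and untreated cells at a limma Benjamini-Hochberg adjusted p under 0.05 (0 of 19509, 0.0%), and the lowest adjusted p was 1. At an unadjusted limma p under 0.05 there were 231 probe sets, of which 25 (0.128%) were higher at 1 µM and 206 (1.06%) lower. The 206 lower probe sets were dim, with a median level of 5.92 in untreated and 4.62 in treated cells, against 8.09 and 8.05 over all probe sets tested, and 70 of them lay below 4 at 1 µM. The 25 higher probe sets were dim too, with medians of 4.43 untreated and 5.49 at 1 µM, and 8 lay below 4 in untreated cells. When each gene was represented by its brightest probe set, 58 of 10290 genes (0.564%) had an unadjusted limma p under 0.05. The median difference over genes was 0.01 and the median absolute difference 0.24, smaller than the median SE of 0.39. In 1166 genes (11.3%) the 1 µM arrays were the upper 2 of the 4 without overlap, and in 1147 genes (11.1%) the lower 2, and 5232 genes (50.8%) had a positive difference. Over probe sets, 1822 lay above and 2629 below, and that balance turned with the scaling, to 2698 above and 1867 below after median centring and 3130 and 1945 after quantile normalization.

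Dicer1 itself was not lower at 1 µM on average. Its brighter probe set read 7.09 and 5.99 in untreated cells and 5.39 and 8.30 at 1 µM, so that the 1 µM arrays held both the lowest and the highest of the 4 values. The difference was 0.31 ± 0.97 (SE; limma adjusted p = 1). Without 1 µM replicate 2 it was -1.14, and without 1 µM replicate 1 it was 1.76. A second probe set read 6.33 and 5.93 in untreated cells and 6.10 and 6.55 at 1 µM, and its groups overlapped too. The CDKO cells at 5 µM read 5.83 and 5.78 on the brighter probe set. On that probe set the WT cells read 8.97 and 9.10 untreated and 7.64 and 7.19 at 5 µM, so it was lower with the drug in WT cells too. The labels do not place the deleted part of the gene relative to these probe sets, so whether they check the deletion is not known.

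The estrogen receptor gene Esr1, whose ligand-binding domain is used in inducible Cre fusions, was bright in all 4 arrays on its brightest probe set, at 8.66 and 9.34 in untreated cells and 9.34 and 8.85 at 1 µM. The WT arrays read 2.63 to 4.57 on the same probe set. The difference between 1 µM and untreated cells was 0.10 ± 0.39 (limma adjusted p = 1), and both other Esr1 probe sets had means below 4. Among 14 tested genes of the estrogen response, 10 differences were positive with a median of 0.17, 3 genes had both 1 µM arrays on top (11.3% over all genes), and none had an unadjusted p under 0.05. The median was 0.45 without untreated replicate 2 and 0.04 between the matched arrays. Gata3, a transcription factor and one of these 3, read 2.35 and 3.91 untreated and 3.92 and 4.52 at 1 µM. Gata3 and Stc2 had untreated means of 3.13 and 3.83 and passed the floor through 1 µM cells alone. Their positive differences are therefore measured against background. Cxcl12, a chemokine, read 12.94 and 12.18 untreated and 12.18 and 11.44 at 1 µM.

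Of 16 tested genes for proteins that make and use microRNAs, 11 differences were positive, the median was 0.10, and 1 member lay above and 1 below in both arrays, where 11.3% and 11.1% of all genes did. The median was -0.17 without 1 µM replicate 2 and 0.32 without 1 µM replicate 1. Ago2, the Argonaute that slices its targets, read 10.52 and 11.47 untreated and 11.84 and 11.67 at 1 µM, a difference of 0.76 that was the largest of the list. Tarbp2, a partner of Dicer, read 7.58 and 8.86 against 8.77 and 8.82. Prkra, another partner, read 9.63 and 8.51 against 8.54 and 8.57. In both partner genes untreated replicate 1 stood alone, and without it the differences were -0.06 and 0.04. Drosha, which makes the precursors that Dicer cuts, read 11.04 and 10.13 against 10.16 and 11.27.

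The let-7 family is abundant in fibroblasts and represses growth genes. Its members share the seed, bases 2 to 8, through which a microRNA finds its sites, and 11 mature mouse microRNAs in RefSeq (GRCm38.p6) begin with it. Of these, 3 are shown because the gene list below holds genes known as let-7 targets, and the seed is in capitals. Sites for the seed were not searched in the listed genes. The mature let-7a-5p lies at chr13:48538239-48538260 on the minus strand, let-7i-5p at chr10:122985698-122985719 on the minus strand and miR-98-5p at chrX:151913229-151913250 on the plus strand.
mmu-let-7a-5p: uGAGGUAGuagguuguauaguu
mmu-let-7i-5p: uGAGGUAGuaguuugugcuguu
mmu-miR-98-5p: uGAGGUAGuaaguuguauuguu

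Among the listed let-7 targets 14 were tested, and Dicer1 itself (0.31) is a member. In the list 11 differences were positive, and the median was 0.34 against 0.01 over all genes. In 3 targets both 1 µM arrays lay on top and in 1 they lay below, against 11.3% and 11.1% over all genes, and none had an unadjusted p under 0.05. The list followed untreated replicate 1. Relative to the mean of the 4 arrays, its median was -0.41 in that array, 0.17 in untreated replicate 2, and 0.29 and 0.02 at 1 µM. Without untreated replicate 1 the median difference was -0.06. Plagl2, a zinc finger factor, read 4.49 and 5.96 untreated and 6.32 and 6.63 at 1 µM, a difference of 1.25 with no overlap. Hmga2, a chromatin protein that is a textbook let-7 target and is named here outside the rule, read 12.22 and 12.88 against 12.96 and 12.66. Igf2bp1, an RNA-binding protein of growing cells, read 7.82 and 9.56 against 9.68 and 8.84, and the cell cycle ubiquitin enzyme Cdc34 read 10.97 and 12.67 against 12.77 and 12.06. In the last 3 genes untreated replicate 1 was the lowest of the 4 arrays. Targets of other fibroblast microRNAs had a median of -0.00 over 21 genes, 10 of them positive.

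The genes that follow were picked for the smallest unadjusted p among those whose groups did not overlap, so their values are a description. Their unadjusted limma p ran from 0.00447 to 0.0395 for the 10 higher and from 0.00189 to 0.0221 for the 10 lower genes, and every adjusted p was 1. Lrp2, the endocytic receptor megalin, read 3.19 and 3.38 untreated and 4.53 and 5.16 at 1 µM, a difference of 1.56 ± 0.34, and 5.04 and 5.28 at 5 µM. Adh7, an alcohol dehydrogenase that also oxidizes retinol, read 2.94 and 3.53 untreated, 4.49 and 4.78 at 1 µM (1.40 ± 0.33) and 5.44 and 5.46 at 5 µM. Among the 10 higher genes, Adh7 was the one in which both 5 µM arrays also lay above both 1 µM arrays. WT cells read 2.56 to 2.95 for Adh7 with or without 5 µM. A second Adh7 probe set, below 4 in all 6 CDKO arrays, did not show this order. It read 3.72 and 3.24 untreated, 3.37 and 3.41 at 1 µM and 3.95 and 3.39 at 5 µM. Other Lrp2 probe sets, with means below 4 in both compared groups, differed by -0.40 and -0.03. Bcl11b, a zinc finger repressor, read 4.24 and 4.18 untreated and 5.56 and 5.28 at 1 µM, but 4.24 and 4.20 at 5 µM, close to the untreated values. A second tested Bcl11b probe set read 2.75 and 3.58 against 2.59 and 5.52, with overlapping groups.

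A further 7 genes had higher values at 1 µM. Lrrc8e, a subunit of volume-regulated anion channels, read 3.36 and 3.32 against 4.56 and 4.20. Lmnb1, the nuclear lamina protein lamin B1, read 7.51 and 7.36 against 8.14 and 8.39, and 6.55 and 6.93 at 5 µM. A second Lmnb1 probe set differed by 0.28 with overlapping groups. The DNA polymerase gene Poll read 4.12 and 4.10 against 4.81 and 5.00. Xylb and Khk, which encode sugar kinases, differed by 1.02 and 0.78, Chst1, a sulfotransferase, by 1.10 and S100b, a calcium-binding protein, by 1.56. Lrp2, Adh7, Lrrc8e and S100b were below the floor of 4 in untreated cells, so their differences are measured against background and are not ratios of transcript amounts.

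Oasl2, an interferon-stimulated gene, had the smallest unadjusted p of the lower genes. It read 6.65 and 6.12 untreated and 4.67 and 4.02 at 1 µM, a difference of -2.04 ± 0.37, and 4.42 and 4.57 at 5 µM. Mars2, the mitochondrial methionyl-tRNA synthetase, read 4.77 and 4.90 untreated and 3.11 and 3.13 at 1 µM, and a second probe set was below 4 in all 6 CDKO arrays. Mmp13, a collagenase, had the largest difference of the 10, at -2.93 ± 0.71, from 8.28 and 6.23 untreated to 3.98 and 4.67 at 1 µM. At 5 µM it read 8.20 and 8.46, as high as the brighter untreated array. Mmp3, which encodes the matrix protease stromelysin, read 4.56 and 4.89 untreated, 3.90 and 3.51 at 1 µM (-1.02 ± 0.33) and 7.71 and 7.29 at 5 µM. In both protease genes the 1 µM arrays were the lowest of the 6 CDKO arrays. Mmp13 was picked for its gap at 1 µM and Mmp3 had been picked earlier for its change at 5 µM, so the choice fixes part of this order. Among 18 tested matrix proteases and inhibitors 11 differences were positive, with Mmp10 at 0.76 and Plau at 0.83, both with overlapping groups.

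The other lower genes were of mixed function. The clock factor gene Arntl2 read 6.00 and 5.99 against 4.88 and 4.51. Zscan26, a zinc finger gene, read 8.56 and 8.38 against 7.32 and 7.49. Cdh19, a cadherin, differed by -1.22 from untreated values of 4.22 and 4.77, and read 5.29 and 5.65 at 5 µM. Abat, which breaks down the transmitter GABA, read 7.70 and 6.54 against 5.54 and 5.53. The choline phosphotransferase gene Chpt1 differed by -1.10, with -0.92 and -0.68 on its other tested probe sets, the histone gene H3c4 by -1.09, and Ppp1r10, a regulator of protein phosphatase 1, by -1.43. Mars2, Cdh19, Ppp1r10 and Mmp3 had means below 4 at 1 µM and passed the floor through untreated cells alone, so their differences too are measured against background.

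**Figure D2:**
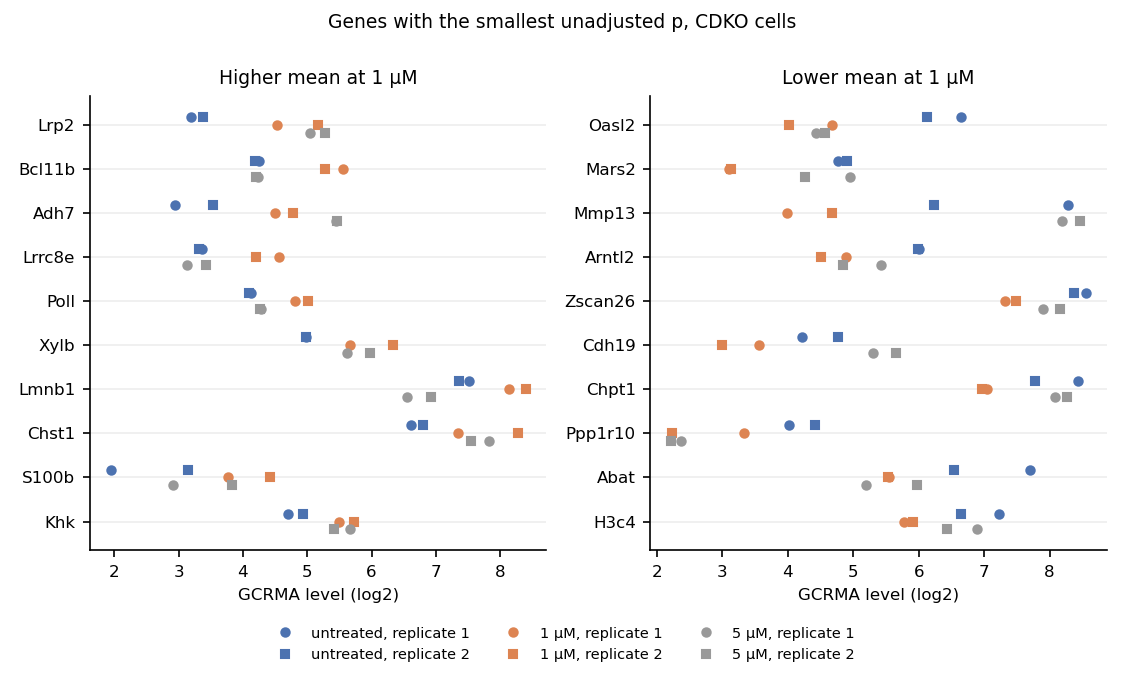
GCRMA log2 levels of the 10 higher and 10 lower genes with the smallest unadjusted p among genes whose groups did not overlap; each point is an array (blue untreated, orange 1 µM, grey 5 µM; circles replicate 1, squares replicate 2). The rule fixes the gap between blue and orange; the grey points lie beyond the orange ones for Adh7 (5.44 and 5.46) and on the untreated side for Mmp13 (8.20 and 8.46).

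Matrix metalloproteinase genes are classical targets of AP-1, the Fos and Jun dimer, and the 100 bases before the start sites of Mmp13, Mmp3 and Adh7 are shown because these were the genes of those just described with an AP-1 type match there. The motif searched was TGANTCA on both strands, and the match is in capitals. It was found in 897 of 32851 such windows of RefSeq promoters (GRCm38.p6), 2.73%, and in 2 of the 15 leading genes with a promoter in that table. The windows lie on the plus strand at chr9:7272414-7272513 (Mmp13), chr9:7445722-7445821 (Mmp3) and chr3:138217673-138217772 (Adh7). The match lies 35 to 29, 46 to 40 and 25 to 19 bases before the start. Mmp13 and Mmp3 were lower at 1 µM and Adh7 was higher, so genes with a match did not share a direction.
Mmp13: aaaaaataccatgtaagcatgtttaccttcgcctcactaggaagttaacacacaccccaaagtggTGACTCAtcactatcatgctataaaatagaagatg
Mmp3: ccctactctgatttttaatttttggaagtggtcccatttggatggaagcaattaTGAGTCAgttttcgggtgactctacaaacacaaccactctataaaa
Adh7: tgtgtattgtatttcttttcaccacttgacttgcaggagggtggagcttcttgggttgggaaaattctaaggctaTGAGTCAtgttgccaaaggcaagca

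Interferon-stimulated genes, which cells switch on when they sense interferon or foreign RNA, were lower at 1 µM in most members. Another 7 members on the array were below the floor in both groups. Of 15 tested, 13 differences were negative, the median was -0.84 against 0.01 over all genes, and 6 genes had both 1 µM arrays at the bottom, where 11.1% of all genes did. Oasl2 and Usp18 had an unadjusted limma p under 0.05, and no member passed after adjustment. Usp18, a protease that limits interferon signalling, read 7.42 and 7.07 untreated and 6.23 and 2.65 at 1 µM. Ifit1, which binds foreign RNA caps, read 8.37 and 6.39 against 6.42 and 3.19. Xaf1, an interferon-induced regulator of cell death, read 9.08 and 8.77 against 8.69 and 6.47. Untreated WT cells read 2.76 and 3.10 for Usp18, 3.53 and 3.21 for Ifit1 and 6.47 and 6.48 for Xaf1. These values lay near those of 1 µM replicate 2. WT cells at 5 µM read 8.42 and 8.48 for Usp18, 5.77 and 5.94 for Ifit1 and 9.18 and 9.44 for Xaf1.

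The size of the interferon difference rested on 1 µM replicate 2, the array that stood apart in Gapdh. Relative to the mean of the 4 arrays, the list's median was 0.67 and 0.15 in untreated cells and 0.17 and -0.99 at 1 µM. Without 1 µM replicate 2 the median difference was -0.23, and between untreated replicate 2 and 1 µM replicate 1 it was -0.05. Stat2 showed that split, at 5.89 and 7.61 untreated and 7.42 and 3.59 at 1 µM. Irf1, a transcription factor that interferon also induces, stayed at 8.44 to 8.52 in all 4 arrays. The widest gap between the matched arrays was that of Oasl2, at 6.12 in untreated replicate 2 and 4.67 in 1 µM replicate 1. The part of RNA quality in these values was not tested.

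Markers of macrophages and leukocytes, cells that can persist in fibroblast cultures made from embryos, were lower too. All 15 tested markers had negative differences, with a median of -1.03 and a range of -1.54 to -0.38, and in 7 both 1 µM arrays lay below both untreated arrays, against 11.1% over all genes. None of the 15 had an unadjusted p under 0.05. A further 5 markers on the array, among them the leukocyte gene Ptprc and the T cell gene Cd3e, were below the floor in both groups. The level averaged over the 15 genes was 7.03 to 7.83 in untreated cells and 6.20 to 6.72 at 1 µM. Cd68, a lysosomal protein of macrophages, read 6.75 and 6.59 untreated and 5.73 and 4.52 at 1 µM. C1qa, a complement subunit made by macrophages, read 8.34 and 7.67 against 7.37 and 5.83. Csf1r, the receptor on which macrophages depend for survival, read 9.46 and 7.66 against 6.82 and 7.89, with overlapping groups. In bulk RNA, fewer cells of a type and less RNA per cell cannot be told apart.

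Among the 4 compared arrays the macrophage list was highest in untreated replicate 1, the array with the highest spike-in level. Its array medians relative to the 4-array mean were 0.85 and 0.03 untreated, and -0.17 and -0.70 at 1 µM. Without untreated replicate 1 the median difference was -0.53, without 1 µM replicate 2 it was -0.64, and between the matched arrays it was -0.34, so it kept its sign in each. The 5 µM arrays differed by more than the compared groups did, at 1.52 and -0.07, with spike-in levels of 11.0 and 9.93. The part of the spike-in level was not tested. Whether the markers of these cells and the interferon genes moved for a shared reason was not tested.

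**Figure D3:**
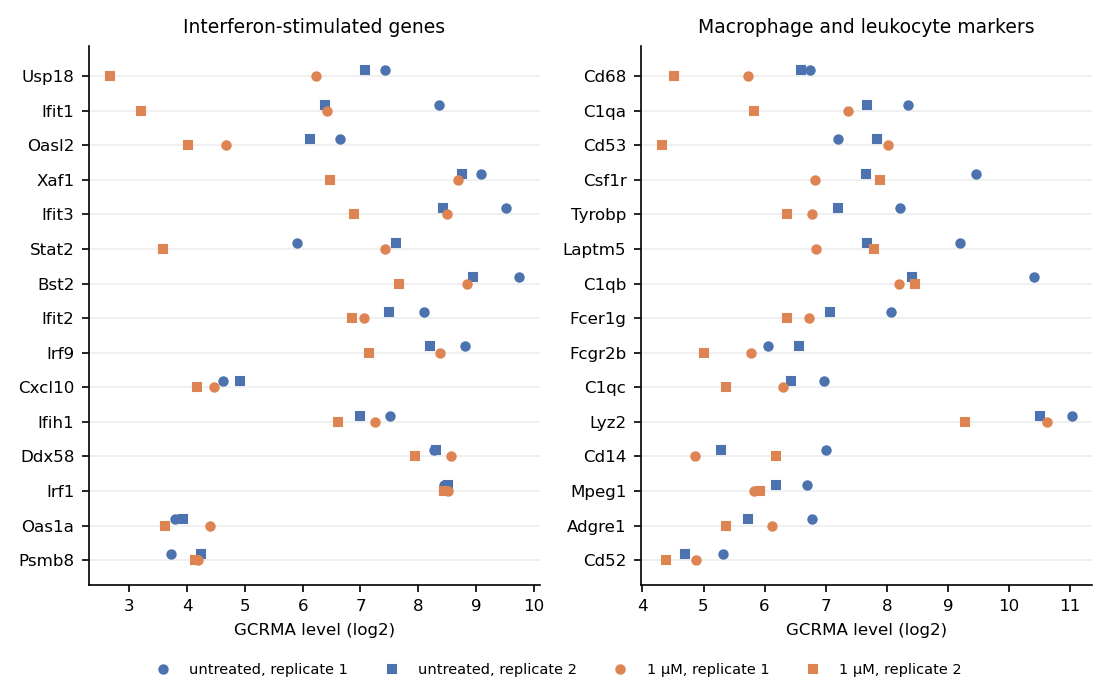
GCRMA log2 levels of the 15 tested interferon-stimulated genes (left) and the 15 tested macrophage and leukocyte markers (right), ordered by the difference; each point is an array (blue untreated, orange 1 µM; circles replicate 1, squares replicate 2). The orange square is far to the left for Usp18 (2.65) and Ifit1 (3.19), and the orange circle lies near the blue square for most interferon genes.

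Of the 12 genes picked earlier for their change at 5 µM, 6 were below 4 in both compared groups and were not tested. Both comparisons use the same untreated arrays, so the values are set side by side and not tested against each other. Akr1c18, a steroid reductase, read 2.16 and 2.14 untreated, 2.15 and 2.14 at 1 µM and 7.38 and 5.91 at 5 µM. The others below 4 were Serpinb9g, Serpinb1b, Slc7a11, Nrcam and Chrna7. Chrna7, a nicotinic receptor subunit, read 2.33 and 2.92 untreated, 3.32 and 3.29 at 1 µM and 5.42 and 4.96 at 5 µM, with no overlap between doses but in the range of background at the lower ones. Nqo1, a quinone reductase controlled by NRF2, read 8.93 and 8.74 untreated, 8.27 and 8.50 at 1 µM and 11.76 and 11.01 at 5 µM. Both of its 1 µM values lay below both untreated values (-0.45 ± 0.36). Idi1, an isomerase of the cholesterol pathway, read 11.30 and 11.67, then 11.58 and 11.30, then 13.22 and 13.18. Abcc4, an efflux pump, read 6.77 and 7.48, then 7.28 and 7.34, then 9.73 and 9.83.

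Adh7 and Slco4a1 were the tested genes of the 12 with higher values at 1 µM and no overlap. The anion transporter gene Slco4a1 read 6.90 and 7.25 untreated, 7.30 and 8.21 at 1 µM (0.68 ± 0.40) and 9.76 and 9.82 at 5 µM, and its untreated and 1 µM values did not overlap. The 1 µM replicate 1 value was 0.04 above that of untreated replicate 2. Adh7 remained 0.96 apart between those arrays.

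**Figure D4:**
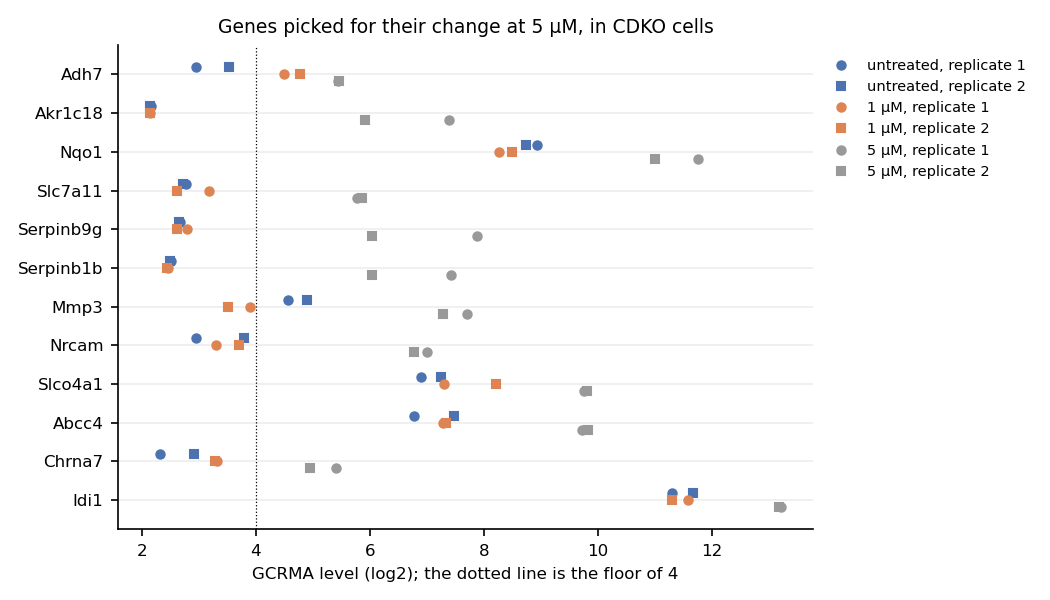
GCRMA log2 levels in the 6 CDKO arrays of 12 genes picked for their change at 5 µM (blue untreated, orange 1 µM, grey 5 µM; circles replicate 1, squares replicate 2; dotted line, the floor of 4). For Akr1c18, Nqo1 and Idi1 the orange points lie with or below the blue ones while the grey ones lie to the right, and for Adh7 the orange points (4.49 and 4.78) lie between.

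For the sterol synthesis and NRF2 pathways of those genes, the medians at 1 µM lay near the 0.01 of all genes. Of 17 tested genes of cholesterol synthesis, 7 differences were positive with a median of -0.05, while the 5 µM arrays lay 1.42 and 1.17 above the mean of the 4 compared arrays. NRF2 targets and glutathione synthesis had a median of -0.05 over 18 genes, 8 positive, with 5 µM medians of 0.75 and 1.04. SREBP control and sterol uptake had a median of -0.03 over 9 genes, and fatty acid synthesis one of 0.13 over 12 genes with 10 positive. The efflux and LXR target list, genes that carry sterol out of cells, had all 6 differences negative and a median of -0.52, which was -0.24 without untreated replicate 1 and -0.21 between the matched arrays. Apoe, a lipoprotein of that list, read 7.49 and 6.91 against 6.60 and 5.66. The aryl hydrocarbon receptor list, which also holds the receptor gene Ahr and its partner Arnt, had a median of -0.38 over 5 genes. In 3 the 1 µM values were lower without overlap (11.1% over all genes), namely Ahr, Arnt and Nqo1. The targets Cyp1b1 and Tiparp differed by -0.03 and 0.22. That median was -0.18 without untreated replicate 1 and -0.13 between the matched arrays.

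Drug efflux and organic anion transport was the list with the highest share of genes above both untreated arrays, 5 of 9 against 11.3% of all genes, and its median was 0.46. Slco3a1, which carries prostaglandins, read 7.58 and 8.06 untreated and 8.35 and 8.98 at 1 µM, a difference of 0.84. Slco2a1, another prostaglandin carrier, read 5.20 and 7.13 against 6.94 and 7.52, with overlapping groups. Abcg2, an efflux pump, was the single member with a negative difference, of -0.11. The list's array medians were -0.45 and -0.05 untreated and 0.06 and 0.39 at 1 µM, so it was lowest in untreated replicate 1 and highest in 1 µM replicate 2. Between the matched arrays its median difference was 0.01. Hypoxia and glycolysis genes had 18 of 20 positive differences and a median of 0.18, which was -0.09 without untreated replicate 1. In 2 of the 20 both 1 µM arrays lay on top, near the 11.3% of all genes.

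Cell cycle genes varied more between replicates than between groups. Of 24 tested genes of mitosis none separated the groups, where 11.3% of all genes lay above and 11.1% below in both 1 µM arrays. The array medians were 0.49 and -0.66 untreated and -0.75 and 0.93 at 1 µM. Nusap1, a spindle protein, read 8.16 and 5.81 untreated and 4.96 and 7.58 at 1 µM. Plk1, a mitotic kinase, read 7.30 and 7.25 against 7.21 and 8.61. DNA replication genes showed the same order of arrays, at 0.25 and -0.27 untreated and -0.39 and 0.46 at 1 µM, over 26 genes with a median difference of 0.06. The G1 cyclins and kinases had a median of 0.30 over 14 genes, which was 0.026 without untreated replicate 1. The median was 0.10 over 7 CDK inhibitors, -0.04 over 22 p53 targets and -0.08 over 12 apoptosis regulators.

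Fibroblast identity was present in all 4 arrays, with all 14 listed fibroblast markers tested and a median difference of 0.10. Col1a1, the main collagen chain of these cells, read 13.29 and 15.17 untreated and 15.16 and 15.28 at 1 µM, where untreated replicate 1 was the low array. Lum, a proteoglycan, read 6.06 and 3.86 against 3.14 and 3.33. Collagens and extracellular matrix had 22 of 29 positive differences with a median of 0.15, and 9 genes had both 1 µM arrays on top, against 11.3% over all genes. Col6a3, a chain of collagen VI, read 9.89 and 10.76 against 10.86 and 12.58. The actin and myofibroblast list had a median of 0.06 over 23 genes and TGF-beta signalling one of 0.23 over 24, with 5 and 4 genes above in both arrays and 0 below in either list, beside 11.3% and 11.1% over all genes. Matrix proteases and inhibitors had a median of 0.10 over 18 genes, against which Mmp13 and Mmp3 stood at the low end.

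Markers of other lineages were mostly below the floor. For skeletal muscle 13 of 16 markers on the array had means under 4 in both groups, for endothelium 10 of 12, for epithelium 9 of 12, for cartilage and bone 7 of 9, for neural and glial cells 7 of 13 and for adipocytes 4 of 8. Of 6 tested neural and glial markers 4 differences were positive, with a median of 0.29, and of -0.11 between the matched arrays. Their largest difference was that of Nes, an intermediate filament of neural and other progenitors, at 7.47 and 9.52 untreated and 9.58 and 10.42 at 1 µM. Of 4 tested adipocyte markers 2 differences were positive and 2 negative, with a median of 0.16, and of -0.25 between the matched arrays. Cebpa, an adipocyte transcription factor, had the largest and read 5.71 and 5.10 against 6.50 and 7.19. Lpl and Pparg differed by -0.97 and -0.26.

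Housekeeping groups differed little, and their counts of genes below or above in both arrays are to be read against the 11.1% and 11.3% of all genes. Cytosolic ribosomal proteins had a median of -0.06 over 18 genes, with a range of -0.20 to 0.10. Mitochondrial respiratory chain genes had 22 of 27 negative differences, all between -0.47 and 0.13, a median of -0.08, and 5 genes below in both arrays. Proteasome subunits had 19 of 27 negative differences and a median of -0.09, with 6 genes below and 1 above. Without untreated replicate 1 the proteasome median was 0.0002. Splicing factors had a median of -0.07 over 25 genes. Medians lay between -0.16 and 0.17 in 10 further lists, which covered heat shock, lysosome and autophagy, Hox genes, imprinted growth genes, the IGF family, Wnt signalling, growth factor response, retinol handling, chemokines and cytokines, and clade B serine protease inhibitors. In the unfolded protein and integrated stress response 15 of 24 differences were positive with a median of 0.14, and 5 genes lay above in both arrays, against 11.3% over all genes. Chac1, a glutathione-degrading stress gene, read 7.68 and 8.15 against 8.12 and 9.33 and was not among them.

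**Figure D5:**
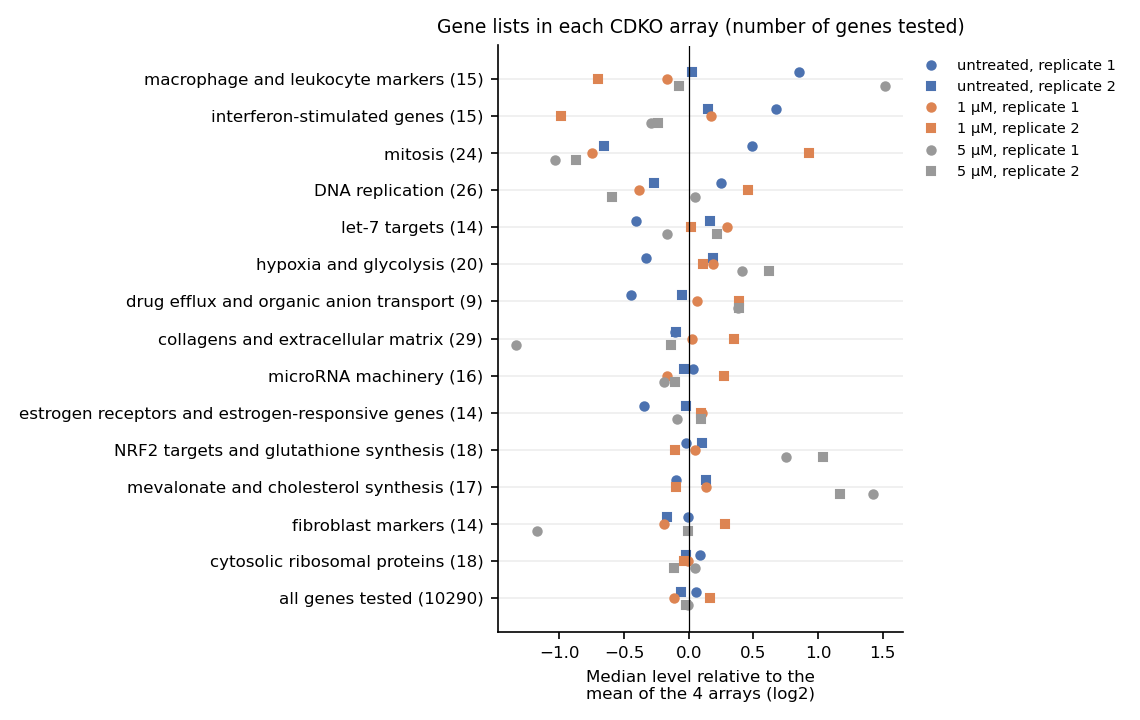
Median over each gene list of the gene's log2 level minus its mean over the 4 compared arrays, by array (blue untreated, orange 1 µM, grey 5 µM; circles replicate 1, squares replicate 2; number of genes tested in brackets). For mitosis the circles and squares of a colour lie far apart (0.49 and -0.66 untreated, -0.75 and 0.93 at 1 µM), and for cholesterol synthesis the 5 µM points lie alone at 1.42 and 1.17.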

How the data were processed

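RNA from 10 mouse embryonic fibroblast samples was hybridised to Affymetrix arrays. The log2 values used are the authors' deposited GCRMA values (method per the submitters' processing notes, version not given in the sources used here). Their range showed the log2 scale. Probe sets were named through the platform annotation, and a lookup in RefSeq by gene identifier changed no symbol. Of 45037 non-control probe sets 34945 had 1 symbol, 932 several and 9160 none.

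The comparison was fitted on the 6 CDKO arrays in 3 groups with limma 3.58.1 (R 4.3.3, lmFit and eBayes, Benjamini-Hochberg over 19509 probe sets), because CDKO replicates scatter more (median SD 0.32 and 0.36 in the compared groups) than WT replicates (0.10 and 0.07). A gene was represented by its probe set with the highest mean over 10 arrays. Named genes were the 10 per direction with the smallest p among genes whose groups did not overlap (clone names passed over), the 4 largest absolute differences of each list, 12 genes described earlier at 5 µM, Dicer1 and Esr1. Members named otherwise (Hmga2, Drosha, Irf1, Stat2, Abcg2, Ptprc, Cd3e) were chosen after their values were seen. The members, the 46 gene lists and the tests were chosen with earlier results of these data known. The fit was tested on simulated data. Alternatives were other filters, scalings, priors, weights, blocks and spreads, and each CDKO array left out in turn. A crossed replicate block and its uncrossed form on the 4 arrays were chosen once the data had been seen. Same-numbered arrays were not treated as pairs. Their replicate differences correlated at -0.46 between untreated and 1 µM cells, 0.44 between untreated and 5 µM cells and 0.026 between the doses. These values cannot settle whether the numbers pair cultures. Listed genes without a single named probe set were not analysed here.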

Additional observations from a re-analysis of the deposited data

Results flagged for a closer look

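The control probe sets for 18S ribosomal RNA, which enter no comparison, stood at a mean log2 level of 10.2 in CDKO 1 µM replicate 2, above both untreated CDKO arrays (6.87 and 8.44). The other 1 µM array read 5.21, and the untreated WT arrays 11.6 and 11.2. Groups of 2 arrays were too small to test for a single array far from the others.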

How the results depend on the processing

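No probe set passed an adjusted limma p of 0.05 under any of the settings run, and the lowest adjusted p was 0.251, without 1 µM replicate 1. Unadjusted p under 0.05 counted 231 probe sets in the fit reported, 687 with the spread pooled over 10 arrays, 198 on the 4 arrays alone, 649 without a filter, 114 with a floor of 6, 210 after median centring, 214 after quantile normalization, 172 with a block for spike-in class, 11 for a change beyond 1, 70 with 1 probe set per gene, and 157 to 1825 when an array was left out. Whether replicate numbers pair these samples is not known, and the fit reported does not use them. A replicate block gave 570, and on the 4 arrays the crossed replicate block gave 389 against 181 uncrossed. Each had 0 calls after adjustment.

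Probe sets with both 1 µM arrays above both untreated arrays numbered 1822, but 3130 after quantile normalization, 1166 with 1 probe set per gene and 4253 to 7509 without an array, where a single array is easier to clear. Those below numbered 2629, but 5026 without a filter, 1147 with 1 probe set per gene and 5354 to 7674 without an array. Of 57 named genes none passed in any setting and 15 changed sign in at least 1. Blocking on spike-in class gave -0.011 for Abcc4, -0.31 for Col1a1, -0.20 for Esr1, -0.28 for Igf2bp1 and 0.0033 for Prkra, and median centring gave 0.020 for Irf1. Leaving out an array gave -0.16 to 0.54 for Abcc4, -0.25 to 1.45 for Cdc34, -1.14 to 1.76 for Dicer1, -0.43 to 0.69 for Drosha, -0.24 to 0.44 for Esr1, -0.069 to 0.59 for Hmga2, -0.23 to 0.13 for Idi1, -0.30 to 1.45 for Igf2bp1, -0.045 to 0.035 for Irf1, -2.03 to 0.59 for Nusap1, -0.065 to 1.34 for Plk1, -1.08 to 0.041 for Prkra, -3.16 to 0.67 for Stat2 and -0.063 to 1.21 for Tarbp2. Of 46 gene lists, 37 had a median that moved by more than the spread between replicate arrays in at least 1 setting (82 of 552 values). The cause of these changes was not tested. With 2 arrays a group the median SE for a gene was 0.39, and differences of about that size are not resolved here. That SE is not a limit above which a difference is resolved, as no difference of any size passed after adjustment, the -2.93 of Mmp13 included. Dim probe sets near 4 are read against background.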
